A study of Mus musculus with 46 samples.

Results

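Cyclins are the regulatory subunits that switch on the cyclin-dependent kinases, and 9 cyclin genes of the cell cycle were followed here: Ccnd1, Ccnd2 and Ccnd3, Ccne1 and Ccne2, Ccna2, Ccnb1 and Ccnb2, and Ccnf. They were taken by symbol, 9 of the 20999 genes in the count table, and all 9 passed the filter on low counts that left 12230 genes for testing. The study asked how microglia, the resident macrophages of the brain, differ at the level of RNA and chromatin when they divide in different settings. The RNA came from male C57BL/6 mice in 5 groups of 2 libraries, which the labels call independent biological replicates. Adult basal microglia came from wild-type mice of 90 days with no treatment and are labelled Ki67-negative. Mice carrying a Ki67-rfp reporter gave the 4 other groups, sorted as Ki67-negative or Ki67-positive cells. One pair was collected untreated on postnatal day 8 (PND8). The other pair, called repopulation, came at 75 days from mice fed PLX5622, a CSF1 receptor inhibitor that depletes microglia, for 17 days from day 55 and then left to recover for 3 days. The adult group therefore differs from each of the others in genotype, and in age, and sorted groups of one setting differ only in the Ki67 gate. H3K27ac was mapped in wild-type C57BL/6 males, sorted after fixation with an antibody against Ki67, in 6 groups of 2 peak lists. They were adult at 60 and 65 days, both Ki67 states at PND8, both at 90 days after 4 weeks of cuprizone (a toxicant that strips myelin), and repopulation Ki67-positive cells at 90 days with PLX5622 from day 70. There were also 2 adult H3K4me3 lists (75 days), 2 adult lists (60 and 65 days) and 1 PND8 Ki67-positive list for the RNA polymerase II subunit Rpb2, and 1 ATAC-seq list each for adult (80 days), PND8 Ki67-positive and repopulation Ki67-positive (75 days, PLX5622 from day 55) microglia. The titles of the PND8 and repopulation ATAC-seq samples name the Ki67-rfp reporter while their genotype field says wild type, and the adult one is wild type in both. The title of the second adult Rpb2 sample says 60 days, while 65 days is used here, as in the title of its input.

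In the textbook cell cycle, D cyclins respond to growth factor signals and, with CDK4 and CDK6, start the inactivation of the retinoblastoma protein. E cyclins with CDK2 then carry the cell into DNA synthesis, cyclin A2 serves S phase and G2, and the B cyclins with CDK1 drive mitosis. Cyclin F does not activate a kinase but is the substrate receptor of a ubiquitin ligase that is active in G2. Ki67, the protein used for the sort, is made in all phases of the cycle and little in resting cells.

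Library totals ran from 6865903 to 10287876 counts. Mki67, which encodes Ki67, checked the labels. Levels are in CPM, counts per 1000000 of a library total that was scaled as given in the processing section. Mki67 was at 13.4 and 11 CPM in the adult libraries, 242 and 282 in PND8 Ki67-negative, and 920 and 1107 in PND8 Ki67-positive libraries. It was at 336 and 463 in repopulation Ki67-negative and 930 and 1087 in repopulation Ki67-positive libraries. It was thus higher in every Ki67-positive library than in any Ki67-negative one, while the sorted Ki67-negative libraries stood far above the adult ones (log2 fold changes of 4.42 ± 0.19 for PND8 and 5.03 ± 0.19 for repopulation, SE of the fit, n = 2 and 2, edgeR adjusted p = 3.1e-09 and 1.82e-09). All 8 microglia markers listed (such as Csf1r and P2ry12) had counts in every group, with sums of 5988 to 7852 CPM. The 7 border macrophage markers summed to 607 to 859 CPM in the PND8 libraries, 64.5 to 79.8 in adult and 26.2 to 43.0 in repopulation, where Lyve1 was at 0, and the 9 monocyte or neutrophil markers summed to 68.8 to 228 CPM in adult and at most 9.26 elsewhere.

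The balance of the cyclins differed between the groups. In TPM, in which transcript counts are scaled for length and depth, the D cyclins made up 91.7% and 91.1% of the summed level of the 9 genes in the adult libraries. They made up 60.6% and 50.2% in PND8 Ki67-negative, 28.8% and 26.8% in PND8 Ki67-positive, 52.7% and 51.7% in repopulation Ki67-negative, and 26.3% and 27.3% in repopulation Ki67-positive libraries. The E cyclins took 14.5% to 17.3% in the 4 sorted Ki67-negative libraries and 3.26% to 6.08% in the 4 Ki67-positive ones. Cyclins A2, B1, B2 and F together took 6.03% and 6.74% in adult, 24.9% to 34.6% in sorted Ki67-negative and 66.7% to 70.0% in Ki67-positive libraries. In bulk samples such as these, fewer cells with a transcript and less of it per cell cannot be told apart.

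**Figure D1:**
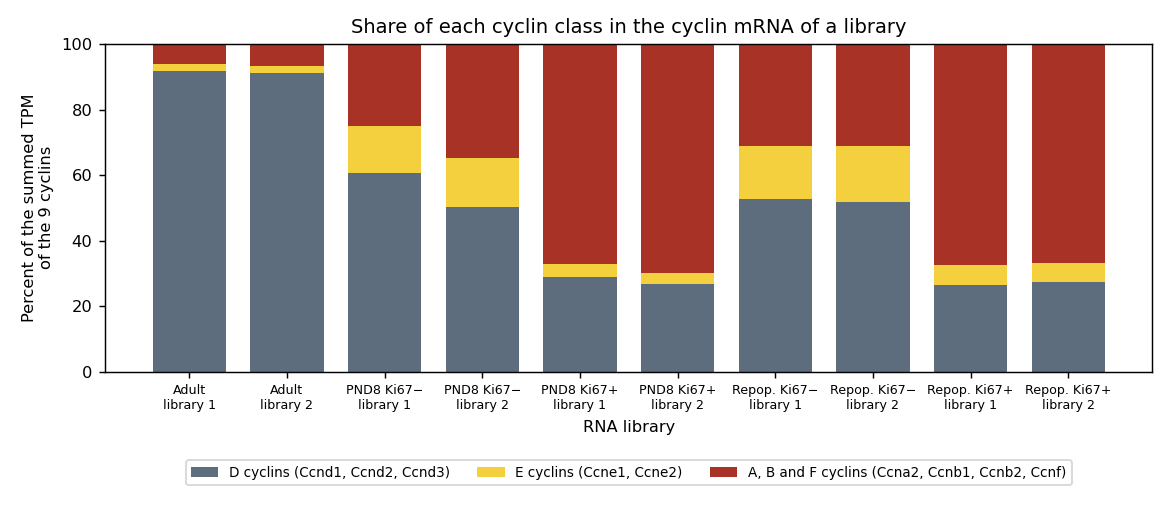
Stacked bars give, for each of the 10 RNA libraries on the x axis, the percent of the summed TPM of the 9 cyclins held by the D cyclins, the E cyclins and the A, B and F cyclins. D cyclins hold 91.1% and 91.7% in adult libraries, and the E share is wider in the sorted Ki67-negative libraries (14.5% to 17.3%) than in the Ki67-positive ones (3.26% to 6.08%).

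Between Ki67-positive and Ki67-negative cells of the same setting, cyclins A2, B1 and B2 rose and cyclin E2 fell in Ki67-positive cells in both settings. At PND8, 4 of the 9 genes were called higher (Ccna2, Ccnb1, Ccnb2, Ccnf) and 3 lower (Ccnd3, Ccne1, Ccne2), where 2.75% of all genes tested were called higher and 3.15% lower. In repopulation 3 were called higher (Ccna2, Ccnb1, Ccnb2) and 1 lower (Ccne2), where 1.87% of all genes tested were called higher and 0.867% lower. A call is an adjusted p under 0.05 (edgeR, quasi-likelihood, adjusted by Benjamini and Hochberg over the 12230 genes). The difference between both settings was itself tested as an interaction and was called for 0 of the 9 cyclins and 0% of all genes by edgeR, with 1 cyclin (Ccnd3) at an unadjusted p under 0.05, and for 0 cyclins by DESeq2 and by limma. A call in one setting and none in the other therefore does not show that the settings differ, nor does this test show that they are alike. The interaction (repopulation minus PND8, log2 scale) was 0.61 ± 0.18 for Ccnd3, 0.71 ± 0.33 for Ccne1 and 0.53 ± 0.27 for Ccne2. For Ccna2, Ccnb1, Ccnb2, Ccnd1, Ccnd2 and Ccnf it was 0.07, -0.22, 0.24, -0.21, -0.32 and -0.12. The edgeR adjusted p was 0.96 or more for all 9. Markers of other cells moved with the gate as well: the 5 endothelial markers summed to 83.8 to 86.9 CPM in PND8 Ki67-negative and 51.0 to 51.9 in PND8 Ki67-positive libraries, and to 64.9 to 72.0 and 45.9 to 46.6 in repopulation. The 6 astrocyte markers summed to 502 to 567 CPM in repopulation Ki67-negative and 410 to 421 in repopulation Ki67-positive libraries, while the PND8 replicates lay far apart (94.2 and 428, 52.8 and 369). The part of these markers in the Ki67 differences was not tested.

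**Figure D2:**
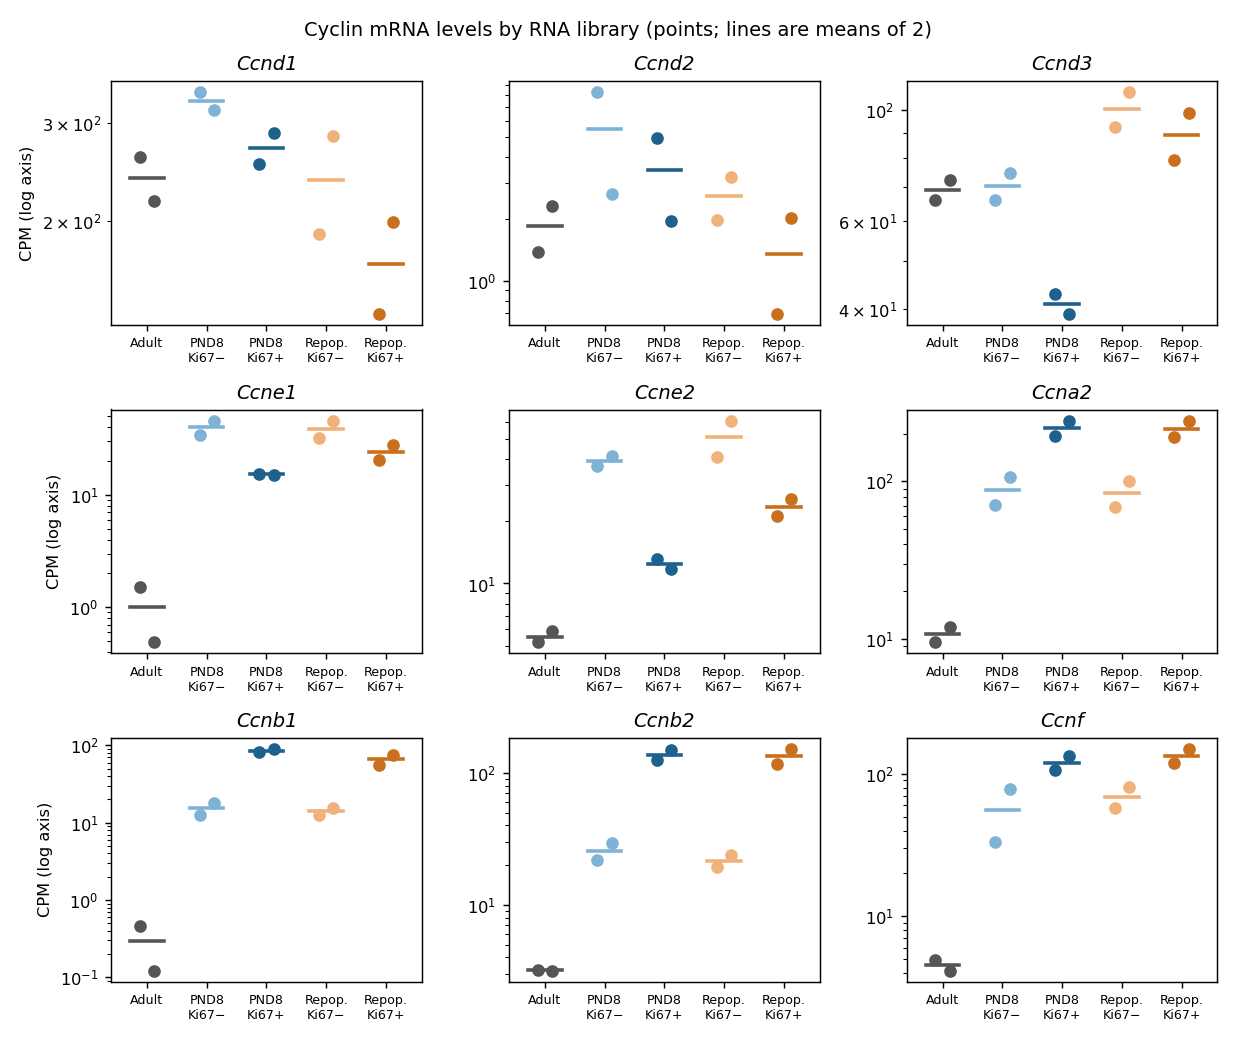
Each panel plots 1 cyclin: points are the CPM of single RNA libraries on a log axis, lines the mean of the 2 libraries, and the x axis the 5 groups. For Ccna2, Ccnb1, Ccnb2 and Ccnf the Ki67-positive libraries lie above the Ki67-negative ones of the same setting, and for Ccne1 and Ccne2 below them.

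**Figure D3:**
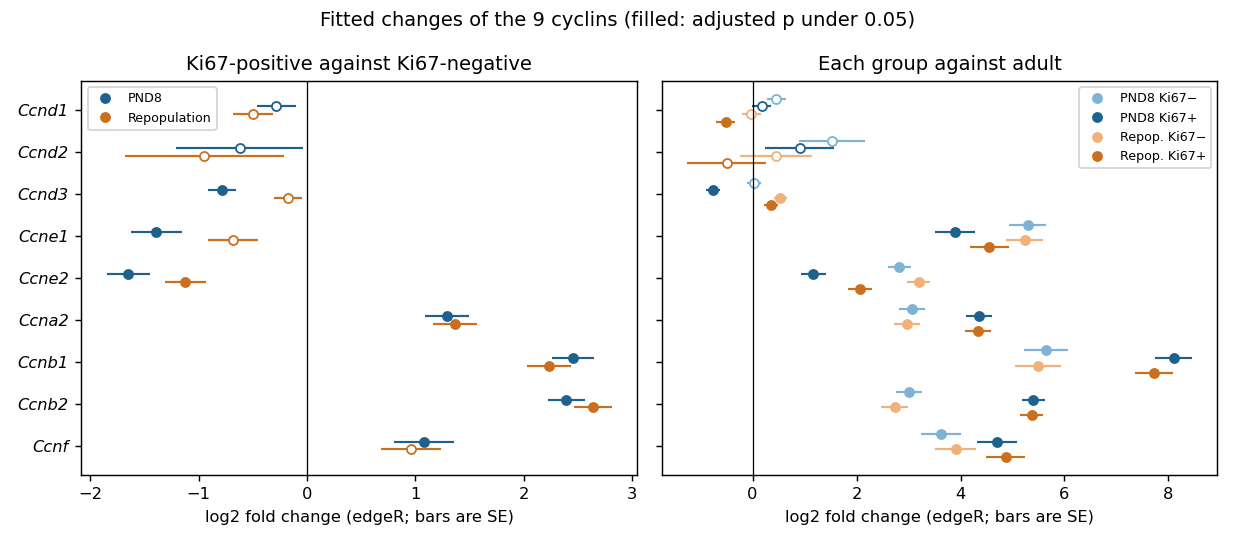
Fitted log2 fold changes (x axis, bars are SE) for the 9 cyclins, Ki67-positive against Ki67-negative on the left and each sorted group against adult on the right; filled points have an adjusted p under 0.05. Ccnb1 and Ccnb2 lie at 2.24 to 2.64 in both settings on the left, and Ccnb1 reaches 8.10 against adult on the right.

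Ccnd1 (chr7:144929931-144939925, mm10, minus strand), the D cyclin with the most TPM in 9 of the 10 libraries, was abundant in every group. It was at 261 and 218 CPM in adult, 342 and 317 in PND8 Ki67-negative, 253 and 288 in PND8 Ki67-positive, 190 and 284 in repopulation Ki67-negative, and 136 and 199 in repopulation Ki67-positive libraries. Only the neighbouring groups at the top of that order, PND8 Ki67-positive and PND8 Ki67-negative, did not overlap. The log2 fold change of Ki67-positive over Ki67-negative cells was -0.28 ± 0.18 at PND8 (edgeR adjusted p = 0.421) and -0.50 ± 0.18 in repopulation (0.204), and neither was called. With no filter on low counts both were called (edgeR adjusted p = 0.0398 and 1.8e-05) at -0.28 and -0.50. PND8 Ki67-negative cells against adult stood at 0.46 ± 0.18 (edgeR adjusted p = 0.0514), not called. That value was called with library sizes only (0.024), no filter (7.91e-06), the replicate number as a term (0.0198) or only the groups compared (0.0153). Ccnd1 was lower in repopulation than in PND8 Ki67-positive cells by -0.69 ± 0.18 (edgeR adjusted p = 0.0115) and lower in repopulation Ki67-positive cells than in adult by -0.52 ± 0.18 (edgeR adjusted p = 0.0352). The last call was lost without adult library 1 (-0.38, edgeR adjusted p = 0.23) or repopulation Ki67-positive library 1 (-0.29, 0.268), and in DESeq2 (adjusted p = 0.119), and the one before it without PND8 Ki67-positive library 2 (-0.63, edgeR adjusted p = 0.0706) or repopulation Ki67-positive library 1 (-0.47, 0.113). Ccnd1 shares 818 bp with LTO1 on the other strand, whose level was the most like it (r = 0.968 over the 10 libraries). The titles of the RNA libraries name dUTP, a strand-specific protocol, but the file headers do not state whether the counting used the strand. Whether reads of that stretch were kept apart between both genes is therefore not known.

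Ccnd2 (chr6:127125709-127151048, minus strand) was close to the detection limit. Its levels were 1.39 and 2.32 CPM in adult, 8.29 and 2.66 in PND8 Ki67-negative, 4.96 and 1.97 in PND8 Ki67-positive, 1.98 and 3.20 in repopulation Ki67-negative, and 0.694 and 2.02 in repopulation Ki67-positive libraries. All neighbouring groups overlapped, and no comparison was called with all libraries and the filter on low counts; the log2 fold change of Ki67-positive over Ki67-negative cells was -0.62 ± 0.58 at PND8 (edgeR adjusted p = 0.625) and -0.95 ± 0.74 in repopulation (0.599). It was called higher in PND8 Ki67-negative cells than in adult without PND8 Ki67-negative library 2 (2.14, edgeR adjusted p = 0.0122, against 1.53 and 0.0638 with it) and with no filter on low counts (adjusted p = 0.00401). It was called lower in repopulation than at PND8 with no filter among Ki67-positive cells (-1.40, edgeR adjusted p = 0.0287), and among the negative ones without PND8 Ki67-negative library 2 (-1.69, 0.0408).

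Ccnd3 (chr17:47593467-47599688 for the counted transcript, plus strand) was called in 6 of the 9 comparisons, more than any other D cyclin. It was at 66.2 and 72.5 CPM in adult, 66.1 and 74.9 in PND8 Ki67-negative, 42.8 and 39.2 in PND8 Ki67-positive, 92.2 and 108 in repopulation Ki67-negative, and 79.3 and 98.6 in repopulation Ki67-positive libraries. The PND8 Ki67-positive libraries were below all others and the repopulation libraries above all others. At PND8 it was lower in Ki67-positive than in Ki67-negative cells by -0.78 ± 0.13 on the log2 scale (edgeR adjusted p = 0.00274), and by -0.17 ± 0.13 in repopulation (0.566), which was not called. Repopulation exceeded PND8 by 1.11 ± 0.13 in Ki67-positive cells (edgeR adjusted p = 2.9e-05) and by 0.50 ± 0.13 in Ki67-negative cells (0.00727). Against adult it was lower in PND8 Ki67-positive cells (-0.76 ± 0.13, edgeR adjusted p = 0.000392) and higher in repopulation Ki67-negative cells (0.53 ± 0.13, 0.00513) and repopulation Ki67-positive cells (0.36 ± 0.13, 0.0358). The PND8 difference lost its call without PND8 Ki67-positive library 2 (-0.69, edgeR adjusted p = 0.0653), the 0.50 without repopulation Ki67-negative library 2 (0.39, 0.0709), the 0.53 without adult library 1 (0.47, 0.0579) or repopulation Ki67-negative library 2 (0.41, 0.061), and the 0.36 without either adult library (0.29, 0.199, and 0.42, 0.071) or repopulation Ki67-positive library 2 (0.20, 0.336), with library sizes only (0.33, 0.057) and in limma (adjusted p = 0.0789 and 0.0814). The border macrophage marker sums given above ran the opposite way to Ccnd3 between PND8 and repopulation, higher at PND8 and lower in repopulation. Adult and PND8 Ki67-negative libraries overlapped in Ccnd3, while these sums were 64.5 to 79.8 and 607 to 792 CPM. The part of these markers in the Ccnd3 differences was not tested. Ccnd3 shares 358 bp with Bysl on the other strand, with the same limit as for Ccnd1. A copy named Ccnd3-ps exists in the annotation, and reads that it shares with the gene cannot be told apart here.

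The E cyclins were lower in the Ki67-positive than in the sorted Ki67-negative libraries. Ccne1 (chr7:38097984-38107490, minus strand) was at 1.5 and 0.489 CPM in adult (13 and 4 counts), 34.3 and 45.6 in PND8 Ki67-negative, 15.4 and 15.1 in PND8 Ki67-positive, 31.8 and 45.7 in repopulation Ki67-negative, and 20.5 and 27.8 in repopulation Ki67-positive libraries. All Ki67-positive libraries lay below all sorted Ki67-negative ones. The log2 fold change was -1.39 ± 0.24 at PND8 (edgeR adjusted p = 0.00304), and -0.68 ± 0.23 in repopulation (0.161), which was not called, though it was with no filter (0.00532) and in a fit that also holds a code from the column headers, whose meaning is not stated (0.013). Ccne2 (chr4:11191351-11204779, plus strand) was at 5.20 and 5.87 CPM in adult, 36.9 and 41.3 in PND8 Ki67-negative, 13.1 and 11.8 in PND8 Ki67-positive, 40.9 and 61.3 in repopulation Ki67-negative, and 21.2 and 25.6 in repopulation Ki67-positive libraries. It fell in Ki67-positive cells in both settings, by -1.65 ± 0.20 at PND8 (edgeR adjusted p = 0.000227) and by -1.12 ± 0.19 in repopulation (0.00474), and was higher in repopulation than in PND8 Ki67-positive cells by 0.90 ± 0.21 (0.00481). The PND8 call of Ccne1 was lost without PND8 Ki67-positive library 2 (-1.34, edgeR adjusted p = 0.0572) and in limma with a pseudocount of 0.1 TPM (adjusted p = 0.0873). Ccne2 shares 5622 bp with Ints8 on the other strand, with the same limit as for Ccnd1.

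Ccna2 (chr3:36564865-36573038, minus strand) rose in Ki67-positive cells in both settings. Its levels were 9.48 and 11.9 CPM in adult, 70.4 and 107 in PND8 Ki67-negative, 193 and 244 in PND8 Ki67-positive, 68.6 and 100.3 in repopulation Ki67-negative, and 192 and 241 in repopulation Ki67-positive libraries. The 3 levels (adult, sorted Ki67-negative, Ki67-positive) did not overlap, whereas PND8 and repopulation did at each Ki67 state. The log2 fold change of Ki67-positive over Ki67-negative cells was 1.29 ± 0.20 at PND8 (edgeR adjusted p = 0.00156) and 1.37 ± 0.20 in repopulation (0.00191). The second was lost without repopulation Ki67-negative library 1 (1.11, edgeR adjusted p = 0.0518). Ccna2 shares 863 bp with Exosc9 on the other strand, with the same limit.

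Ccnb1 (chr13:100778739-100786486, minus strand) and Ccnb2 (chr9:70407689-70421554, minus strand) encode the mitotic cyclins and had the largest differences with Ki67 among the 9 genes. Ccnb1 was at 0.463 and 0.122 CPM in adult (4 and 1 counts), 12.6 and 18.2 in PND8 Ki67-negative, 81.2 and 89.7 in PND8 Ki67-positive, 12.5 and 15.7 in repopulation Ki67-negative, and 56.1 and 75.9 in repopulation Ki67-positive libraries. Ccnb2 was at 3.24 and 3.18 CPM in adult, 21.9 and 29.5 in PND8 Ki67-negative, 124 and 149 in PND8 Ki67-positive, 19.4 and 23.8 in repopulation Ki67-negative, and 116 and 151 in repopulation Ki67-positive libraries. Both genes separated adult, sorted Ki67-negative and Ki67-positive libraries into 3 levels without overlap. For Ccnb1 the log2 fold change with Ki67 was 2.46 ± 0.20 at PND8 (edgeR adjusted p = 1.42e-05) and 2.24 ± 0.20 in repopulation (6.38e-05). For Ccnb2 it was 2.40 ± 0.17 (edgeR adjusted p = 4.02e-06) and 2.64 ± 0.17 (2.93e-06), and the 4 calls of both genes held under all alternatives run. Copies named Ccnb1-ps and Ccnb2-ps exist in the annotation, and reads that they share with the genes cannot be told apart here.

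Ccnf (chr17:24223232-24251409, minus strand) followed the B cyclins with a smaller difference. It was at 4.97 and 4.15 CPM in adult, 33.0 and 78.3 in PND8 Ki67-negative, 106 and 133 in PND8 Ki67-positive, 57.6 and 80.8 in repopulation Ki67-negative, and 119 and 149 in repopulation Ki67-positive libraries. The Ki67-positive libraries lay above the Ki67-negative ones in both settings, and the PND8 Ki67-negative libraries differed from each other by more than any other Ccnf pair. The log2 fold change was 1.08 ± 0.28 at PND8 (edgeR adjusted p = 0.0378) and 0.96 ± 0.28 in repopulation (0.0943), which was not called. The PND8 call was lost without PND8 Ki67-negative library 1 (0.61, edgeR adjusted p = 0.0711) or either PND8 Ki67-positive library (1.27, 0.0614, and 0.95, 0.265), with only the groups compared (1.12, 0.114), and in DESeq2 (adjusted p = 0.124) and limma (0.0628 and 0.0743). In repopulation Ccnf was called with only the groups compared (0.97, edgeR adjusted p = 0.0262), with no filter (1.44e-12) and in the fit that holds the header code (0.000113). Its log2 fold change was 0.96 with and without the filter, so the lower p came without a larger difference. The same held for Ccne1 in repopulation (-0.68 in both fits) and Ccnd2 in PND8 Ki67-negative cells against adult (1.53 in both).

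The count table header carries a numeric code per library, whose meaning is not stated. The first PND8 libraries share one, the second PND8 and first repopulation libraries another, and the second repopulation libraries one more. Ki67-positive and Ki67-negative libraries could thus be set against each other within a code. Within codes, Ccnb1 differed by 2.66 and 2.29 at PND8 and then 2.15 and 2.26 during repopulation on the log2 CPM scale, and Ccne2 by -1.48 and -1.79, and -0.94 and -1.25. Ccna2 differed by 1.45 and 1.19, and 1.48 and 1.26, Ccnb2 by 2.49 and 2.32, and 2.57 and 2.66, and Ccnf by 1.68 and 0.76, and 1.04 and 0.88. Ccne1 differed by -1.14 and -1.58, and -0.63 and -0.71, and Ccnd3 by -0.62 and -0.93, and -0.22 and -0.14. All 4 pairs had the pooled direction for each of these 7 genes. With the code as a term in the fit, Ccnd1 (lower) was also called in both settings, and Ccne1 (lower) and Ccnf (higher) in repopulation, for 7 calls there. The share of all genes called in that fit is not given here. For repopulation against PND8 only the shared code allows a comparison, of single libraries: Ccnd3 differed by 1.01 among Ki67-positive and 0.30 among Ki67-negative cells, Ccnd1 by -1.08 and -0.74, and Ccne2 by 0.83 and -0.01. The adult libraries have a code of their own, so the code and the adult group cannot be told apart.

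Against adult microglia, 6 cyclins were higher in all 4 sorted groups, Ccna2, Ccnb1, Ccnb2, Ccne1, Ccne2 and Ccnf. The 4 comparisons share the 2 adult libraries. Of the 9 cyclins, 6 were called higher and 1 (Ccnd3) lower in PND8 Ki67-positive cells, with 25.1% and 24.3% of all genes called higher and lower. In PND8 Ki67-negative cells 6 were called higher and 0 lower (25.4% and 21.4% of all genes), by edgeR and likewise 6 in all by DESeq2 and by limma, and 8 had an unadjusted p under 0.05. In repopulation Ki67-positive cells 7 were called higher and 1 (Ccnd1) lower (23.9% and 21% of all genes), with 7 called by DESeq2 and by limma and 6 or 7 with any 1 library of these groups left out (6 without adult library 1). In repopulation Ki67-negative cells 7 were called higher and 0 lower (21.5% and 17.6%), with 7 called by DESeq2 and by limma and 7 at an unadjusted p under 0.05. Beyond the 6, the gene called higher in both repopulation groups was Ccnd3.

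The order of the cyclins against adult depended on the Ki67 gate. In PND8 Ki67-positive cells the log2 fold changes were 8.10 ± 0.36 for Ccnb1, 5.40 ± 0.22 for Ccnb2, 4.70 ± 0.38 for Ccnf, 4.36 ± 0.25 for Ccna2, 3.90 ± 0.39 for Ccne1 and 1.17 ± 0.24 for Ccne2. In PND8 Ki67-negative cells they were 5.64 ± 0.43, 3.01 ± 0.24, 3.62 ± 0.39, 3.06 ± 0.25, 5.29 ± 0.36 and 2.82 ± 0.22 in the same order of genes. In repopulation Ki67-positive cells they were 7.72 ± 0.37, 5.37 ± 0.22, 4.87 ± 0.38, 4.34 ± 0.25, 4.55 ± 0.37 and 2.07 ± 0.23, and in repopulation Ki67-negative cells 5.49 ± 0.44, 2.73 ± 0.25, 3.91 ± 0.39, 2.98 ± 0.26, 5.23 ± 0.36 and 3.20 ± 0.22. All 24 of these values were called, with edgeR adjusted p from 1.11e-09 to 0.00129. Ccnb1 had 5 counts in the adult libraries together, so its ratio in depth-scaled counts was 287 in PND8 Ki67-positive cells with an exact 95% interval of 123 to 886 that covers counting error only, and 53.2 (22.5 to 165) in PND8 Ki67-negative cells. For Ccne1, with 17 adult counts, the ratio was 15.1 (9.28 to 26.4) in PND8 Ki67-positive and 40.4 (25 to 69.7) in PND8 Ki67-negative cells.

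Between repopulation and PND8, the counts of cyclins called were close to or under the share of all genes called, so they are no result about the cyclins as a group. In Ki67-positive cells 2 of 9 were called higher in repopulation (Ccnd3, Ccne2) and 1 lower (Ccnd1), close to the 16.7% and 14.2% of all genes called. In Ki67-negative cells 1 was called higher (Ccnd3) and 0 lower, below the 18% and 18.6% of all genes called, with Ccne2 at 0.38 (edgeR adjusted p = 0.122) and Ccnd1 at -0.48 (0.0532) on the log2 scale; 2 had an unadjusted p under 0.05, and DESeq2 called 1 and limma 2. In Ki67-positive cells the log2 fold changes of the rest were -0.01 ± 0.19 for Ccna2, -0.38 ± 0.18 for Ccnb1, -0.03 ± 0.15 for Ccnb2, 0.17 ± 0.27 for Ccnf, 0.65 ± 0.25 for Ccne1 and -1.40 ± 0.70 for Ccnd2, with edgeR adjusted p of 0.0601 or more. DESeq2 called 4 and limma 3 in these cells; Ccne1 was called higher by DESeq2 (adjusted p = 0.0448) and by edgeR with no filter (0.0036), with the replicate number as a term (0.021) or with only the groups compared (0.0155), though not by limma or in the fit that holds the header code. A p over the threshold does not show that these levels are equal. With the header code as a term, Ccna2, Ccnb1 and Ccnb2 were called lower in repopulation in both Ki67 states (-0.45, -0.72 and -0.38 for the positive and -0.51, -0.47 and -0.59 for the negative cells), and the sign for Ccnf turned (-0.39 and -0.20).

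The genes that act with the cyclins were taken as 4 lists. The counts of each list stand beside the shares of all genes tested that were called in Ki67-positive against Ki67-negative cells. These were 2.75% higher and 3.15% lower at PND8, and 1.87% higher and 0.867% lower in repopulation. Of 22 partners and regulators of the kinases, 10 were called higher and 1 lower in PND8 Ki67-positive cells against Ki67-negative ones, and 7 and 0 in repopulation, with list medians of 0.29 and 0.14 beside -0.03 and -0.0037 over all genes tested on the log2 scale. Cdc25b and Cdc25c, phosphatases that activate CDK1, rose by 3.63 ± 0.19 and 3.19 ± 0.33 at PND8 and, in the same order, 2.99 ± 0.19 and 2.40 ± 0.34 during repopulation, and Cdkn3, a phosphatase of the kinases, by 2.39 ± 0.25 and 1.81 ± 0.25. Cdk2, the partner of the E cyclins, was the gene called lower at PND8. Of 24 genes of cyclin degradation, 6 were called higher and 1 lower at PND8 and 4 and 0 in repopulation (medians 0.03 and 0.22). Cdc20 and Ube2c, an activator and the ubiquitin-conjugating enzyme of the anaphase-promoting complex that destroys cyclins A and B, rose by 2.81 ± 0.25 and 2.11 ± 0.23 at PND8 and by 2.83 ± 0.26 and 1.98 ± 0.23 during repopulation, and its subunit Cdc23 by 0.58 ± 0.11 and 0.79 ± 0.12.

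Of 24 genes of the transcriptional control of cyclins, 1 was called higher and 5 lower at PND8 and 1 and 3 in repopulation (medians -0.06 and -0.01). Foxm1, an activator of G2 and mitosis genes, rose by 1.15 ± 0.19 and 0.90 ± 0.19, whereas E2f1, an activator of S phase genes such as the E cyclins, fell by -1.18 ± 0.16 and -0.87 ± 0.17, and Mybl2, a partner of the MuvB complex, fell by -1.39 ± 0.26 and -1.13 ± 0.26. E2f2, E2f3 and Tfdp1 were the other genes called lower at PND8. Among 21 cyclins outside the 9 (17 tested), 1 was called at PND8, Ccng1, a target of p53, at 0.38 ± 0.09. In repopulation 0 were called by edgeR and 0 had an unadjusted p under 0.05, with Ccng1 at -0.09 ± 0.09. These counts are close to the shares of all genes called, so they are no result about these cyclins.

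The genes most like each cyclin over the 10 libraries were found by Pearson's r of log2 CPM. The 10 libraries share groups and depth, so r is a description. Ccna2 was most like Cenpe, Pimreg and Ckap2l (r = 0.998 each), Ccnb1 like Kif14 (0.998), Dlgap5 and Prc1 (0.996 each), Ccnb2 like Cdc20 (0.997), Parpbp and Cenpf (0.996 each), and Ccnf like Xkr5 (0.997), Birc5 (0.996) and Gtse1 (0.995). Cenpe, Kif14, Prc1 and Birc5 are known to act in mitosis. Ccne1 was most like Prim1 (0.996), Dtl (0.993) and Pole (0.991), and Ccne2 like Tonsl (0.985), Cdc6 (0.981) and Ints7 (0.973), and Prim1, Pole and Cdc6 are known to act in DNA replication. Ccnd1 was most like LTO1, Nrros (0.939) and Slc25a25 (0.923), Ccnd3 like Stn1 (0.962), Hcn2 (0.958) and Tm7sf2 (0.957), and Ccnd2, at low counts, like Tns2 (0.903), Msx1 (0.902) and Sh3bp1 (0.887). Among the cyclins themselves, r was 0.935 to 0.988 within Ccna2, Ccnb1, Ccnb2 and Ccnf and 0.909 between Ccne1 and Ccne2, and Ccnd1 and Ccnd3 had r = -0.323.

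Promoter sequences could be matched for 5 of the 9 cyclins (RefSeq, GRCm38.p6, which shares its coordinates with mm10), each 300 bases from 250 before the transcription start. The CCAAT box (CCAAT, bound by NF-Y), the cell cycle genes homology region or CHR (spelled TTTGAA and also TTCGAA), E2F sites (spelled TTCCCGC, and also TTGGCGC, and also TTCGCGC, and also TTGCCGC) and the core of the CRE site (TGACG) were searched on both strands, and matches are in capitals. The first 4 are shown here, of which Ccnb1, Ccnb2 and Ccnf had higher and Ccne1 lower mRNA in Ki67-positive cells. Ccnf and Ccne1 were called at PND8 but not in repopulation. Ccnd3, also called lower at PND8, is shown further below, and its counted start held a CCAAT box and a CRE core.
Ccnb1 (chr13:100786437-100786736, minus strand): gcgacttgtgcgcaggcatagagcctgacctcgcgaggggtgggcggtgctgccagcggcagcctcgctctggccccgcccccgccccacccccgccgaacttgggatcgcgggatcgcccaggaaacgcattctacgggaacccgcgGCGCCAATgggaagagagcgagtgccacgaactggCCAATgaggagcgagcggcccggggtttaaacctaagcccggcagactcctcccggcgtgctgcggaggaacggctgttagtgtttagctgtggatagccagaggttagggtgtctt
Ccnb2 (chr9:70421505-70421804, minus strand): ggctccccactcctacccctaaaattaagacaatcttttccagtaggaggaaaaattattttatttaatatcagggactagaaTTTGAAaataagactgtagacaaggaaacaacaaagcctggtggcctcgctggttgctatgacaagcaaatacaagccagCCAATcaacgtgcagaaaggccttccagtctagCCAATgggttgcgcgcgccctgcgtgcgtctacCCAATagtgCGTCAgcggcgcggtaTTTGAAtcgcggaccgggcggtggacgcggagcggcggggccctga
Ccnf (chr17:24251360-24251659, minus strand): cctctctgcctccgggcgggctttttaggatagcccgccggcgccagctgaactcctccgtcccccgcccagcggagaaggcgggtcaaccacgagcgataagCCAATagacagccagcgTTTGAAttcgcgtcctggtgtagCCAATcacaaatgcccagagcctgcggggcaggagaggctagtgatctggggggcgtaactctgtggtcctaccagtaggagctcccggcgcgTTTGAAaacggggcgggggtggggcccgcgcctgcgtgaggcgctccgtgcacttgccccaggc
Ccne1 (chr7:38107441-38107740, minus strand): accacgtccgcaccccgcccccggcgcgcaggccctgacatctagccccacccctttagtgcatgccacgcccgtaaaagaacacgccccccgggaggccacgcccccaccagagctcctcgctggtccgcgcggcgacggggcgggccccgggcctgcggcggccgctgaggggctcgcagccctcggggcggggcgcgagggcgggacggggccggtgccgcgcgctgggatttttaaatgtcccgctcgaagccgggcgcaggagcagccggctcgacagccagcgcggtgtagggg
Ccnb1 held 2 CCAAT boxes, the first of which overlaps an E2F match on the opposite strand. Ccnb2 held 3 CCAAT boxes, 2 CHR matches and a CRE core on the opposite strand, and Ccnf 2 CCAAT boxes and 2 CHR matches. None of the letters searched was found in the Ccne1 window. Of 32851 promoters of that length, 37.4% held a CCAAT box, 19.2% a CHR, 9.6% an E2F match, 20.8% a CRE core and 7.5% both a CCAAT box and a CHR. A match of letters is a description, not a bound site.

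H3K27ac is a mark of active promoters and enhancers. At 3 cyclin promoters it had no called peak in adult and one in every PND8 and repopulation list. Peaks of H3K4me3 and open chromatin were present at all 9 in adult microglia. A promoter was counted as marked where a deposited peak touched the 1 kb on either side of the start in every list of a group. All 9 cyclins had adult H3K4me3 (89.8% of the 12230 genes tested in the RNA fit) and an ATAC peak in adult, PND8 Ki67-positive and repopulation Ki67-positive microglia (88.3%, 89.2% and 90.8%). H3K27ac was present at 5 of 9 in adult (Ccna2, Ccnd1, Ccnd3, Ccne1, Ccnf; 68.7% of the genes tested), at 8 in PND8 Ki67-negative (80.5%), PND8 Ki67-positive (82.3%) and repopulation Ki67-positive (79.0%) cells, at 5 in cuprizone Ki67-negative (73.4%) and at 6 in cuprizone Ki67-positive (76.8%) cells. Ccnb1, Ccnb2, Ccne2 and Ccnd2 had no H3K27ac peak in the adult lists, and the first 3 had one in every PND8 and repopulation list. The adult lists held 19572 and 24903 regions, and the PND8 and repopulation lists 26962 to 30321. Tags in peaks were 32.6% and 58.3% in the adult lists and 45.5% to 60.3% in the PND8 and repopulation lists. The part of list size in this difference was not tested, and a missing peak does not show that the mark is absent. Without the lowest-scoring 25% of each list, H3K27ac was left at 4 in PND8 Ki67-negative, 2 in cuprizone Ki67-negative, 3 in cuprizone Ki67-positive and 5 in repopulation cells, and H3K4me3 at 5. The share of all genes left after that cut was not computed, so these counts are no result about the cyclins. Among genes tested with adult H3K4me3 and an adult ATAC peak, 4 of 9 cyclins and 12.2% of all lacked H3K27ac in both adult lists, and of those 3 of 4 and 30.1% had it in both lists of PND8 Ki67-positive and repopulation Ki67-positive cells.

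**Figure D4:**
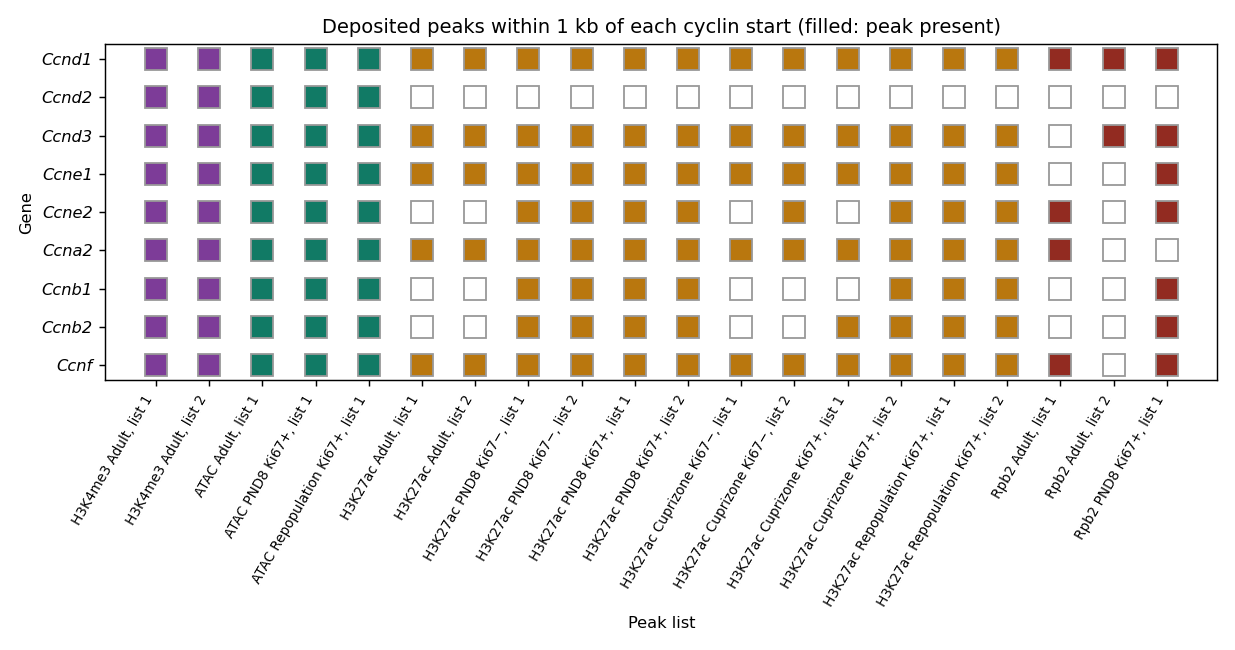
Rows are the 9 cyclins, columns the 20 peak lists, and a filled square marks a deposited peak within 1 kb of the start. H3K4me3 and ATAC are filled for all 9 genes, H3K27ac is empty for Ccnd2 throughout and for Ccne2, Ccnb1 and Ccnb2 in both adult lists.

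After cuprizone, the 3 genes varied with the list. Ccnb2 had a region in both Ki67-positive lists (32.8 and 57.5 tags per 10000000) and in none of the Ki67-negative ones. Ccnb1 had one in the second Ki67-positive list (48.0), and Ccne2 in the second list of each state (23.2 tags for the negative and 117.6 for the positive state). The first Ki67-positive list held 25108 regions and the second 30283. For PND8, the Ccnb1 region held 20.9 and 12 tags in Ki67-negative lists, more than 13.4% and 2.6% of the regions of the same list, and 145.0 and 174.7 tags in Ki67-positive lists, more than 62.5% and 64.9%. Ccnb2 stood at 23.5 and 24.4 tags (15.8% and 16.4% of regions lower) and 196.0 and 186.8 tags (71.4% and 67.0%). The tag values are the authors' own for regions called list by list, which were 500 to 1086 bp wide for Ccnb1 in the first 3 of these lists and 1756 bp in the last. For Ccnb2 the regions were 787 and 697 bp wide in the PND8 Ki67-negative lists and 2152 and 2147 bp in the Ki67-positive ones. The part of width in the tag differences was not tested.

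Ccnd1 carried wide H3K27ac over its start in most lists, and in both repopulation lists it held more tags than 98.9% of regions (907 and 1167.8 tags). In RNA, repopulation Ki67-positive cells had the lowest mean Ccnd1 level of the 5 groups, though they overlapped repopulation Ki67-negative cells. That RNA came from other mice, Ki67-rfp reporters of 75 days, while the H3K27ac mice were wild type and 90 days old. The adult H3K4me3 region of Ccnd1 was 5995 and 5880 bp wide and above 98.8% and 99.1% of regions. At Ccnd2 no list had H3K27ac at the start, and within 50 kb on either side there were 0 regions in both adult lists and 1 to 3 in each of the other 10 lists. At Ccna2 the ATAC peak was centred 768 to 871 bp downstream of the annotated start in all 3 lists and held more tags than 99.5% to 99.8% of peaks. Its H3K27ac regions were centred 478 to 1259 bp downstream of that start, and in 5 of the 12 lists their upstream edge lay before it, at -19 to -133 bp.

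Rpb2, a core subunit of RNA polymerase II, was found at 1 cyclin start in both adult lists, Ccnd1 (47.5% of the genes tested), with 4 and 2 cyclins in the single lists, and at 7 in the PND8 Ki67-positive list (80.4%). At Ccnd1 it held 103.6 and 44.1 tags in adult and 102.5 in PND8 Ki67-positive cells. At Ccnb2 the PND8 peak held 82.8 tags, more than 95.0% of its list, with none in adult, and at Ccnf 64.5 tags beside a weaker upstream peak. Ccna2 had no Rpb2 peak in the window in PND8 Ki67-positive cells but one centred 1145 bp into the gene with 72.0 tags. The adult lists held 14550 and 10544 peaks and the PND8 list 31602, from a single library, so the counts of cyclins were not compared further.

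Ccnd3 has 2 annotated starts with a promoter sequence, 88416 bp apart, and the share of H3K27ac at each varied between the lists. They are shown as the pair that the next values turn on, with CCAAT and TGACG in capitals.
Ccnd3 counted transcript (chr17:47593217-47593516, plus strand): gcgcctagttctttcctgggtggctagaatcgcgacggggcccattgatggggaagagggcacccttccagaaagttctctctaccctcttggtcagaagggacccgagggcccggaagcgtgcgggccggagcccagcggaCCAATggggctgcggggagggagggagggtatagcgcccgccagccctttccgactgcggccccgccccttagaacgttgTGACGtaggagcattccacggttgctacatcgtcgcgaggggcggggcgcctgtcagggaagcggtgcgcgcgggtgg
Ccnd3 upstream start (chr17:47504801-47505100, plus strand): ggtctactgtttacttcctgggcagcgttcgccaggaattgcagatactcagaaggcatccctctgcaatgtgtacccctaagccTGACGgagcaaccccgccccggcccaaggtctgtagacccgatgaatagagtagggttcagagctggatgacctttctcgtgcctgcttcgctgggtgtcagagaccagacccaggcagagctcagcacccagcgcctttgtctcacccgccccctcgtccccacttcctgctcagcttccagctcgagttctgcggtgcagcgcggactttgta
Within a list, regions within 1 kb of the counted start held 67.3 tags per 10000000 beside 201.8 at the upstream start in the first adult list and 75.9 beside 687.9 in the second. The cuprizone Ki67-negative lists had 66.5 beside 628.1 and 188.2 beside 489.5, and the cuprizone Ki67-positive lists 183.1 beside 236.3 and 334.3 beside 300.1. The order was the other way in the PND8 Ki67-negative lists, at 215.3 beside 139.3 and 257.5 beside 130.1. The first PND8 Ki67-positive and first repopulation lists had 296.5 and 314.3 tags at the counted start and no region at the upstream one, and the second ones 347.3 beside 98.7 and 301.9 beside 105.4. The counted start thus held 9.57% to 27.8% of the tags of both in the 4 adult and cuprizone Ki67-negative lists and 60.7% to 100.0% in the 6 PND8 and repopulation lists, and the cuprizone Ki67-positive lists lay between at 43.7% and 52.7%. Regions differed in width (1151 to 2609 bp at the counted start and 782 to 2325 bp upstream). Per kb of region the counted start held fewer tags than the upstream one in all 6 adult and cuprizone lists (38.5 to 128 against 126 to 351) and more in the 4 PND8 and repopulation lists that had both (115 to 159 against 103 to 135). The counting used the transcript of the downstream start, and transcripts from the upstream start were not counted apart, so these values are not set against the Ccnd3 mRNA level.

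**Figure D5:**
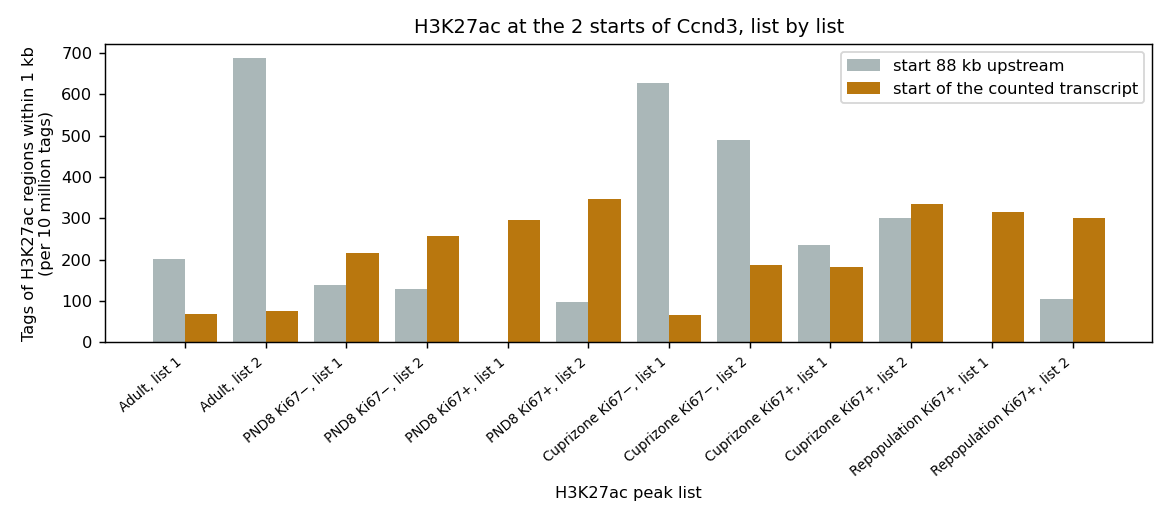
Bars give, for the 12 H3K27ac lists on the x axis, the tags (per 10000000) in regions within 1 kb of the upstream start and of the start of the counted Ccnd3 transcript; a missing bar means that no region was called. The upstream bar is taller in both adult and both cuprizone Ki67-negative lists and the other bar in all 6 PND8 and repopulation lists.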

How the data were processed

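RNA (10 libraries), H3K27ac, H3K4me3 and Rpb2 ChIP-seq and ATAC-seq (20 peak lists in all) were used; 16 input samples were not. Gene counts were made by the authors with HOMER over exons, at most 3 tags per position, per the file headers, which give mm10 and no strand setting. The TPM table was deposited by the authors as well. It names another transcript for 4532 genes, Ccne2 among them. The submitters' processing notes name STAR 2.7.0f, Bowtie2 2.3.4.1, HOMER 4.11 and DESeq2. Peak lists are HOMER output, per the file headers: the deposited signal is tags per 10000000, the deposited score HOMER's own, and the fold over input was at least 4 for ChIP. ATAC peaks were called without input, and the PND8 Rpb2 list against an H3K27ac input. Adult H3K27ac and Rpb2 headers carry the word Vehicle.

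CPM is counts per 1000000 of the library total over the genes tested, after that total was multiplied by the TMM factor. Counts were tested with edgeR 4.0.16 (R 4.3.3): TMM, filterByExpr, quasi-likelihood, all 10 libraries in 1 fit, 9 comparisons, Benjamini-Hochberg adjustment in each, threshold 0.05, SE from the F statistic. The common biological coefficient of variation was 0.0957. Replicates differed by more than sampling noise (chi-square per degree of freedom 2.55 to 11.5). The fit was tested on simulated data. DESeq2 1.42.0 and limma 3.58.1 (log2 of TPM + 1 or + 0.1), other scalings, no filter, the header code or replicate number as a term, only the groups compared, and each library left out were the alternatives, and for peaks windows of 500 and 2500 bp, an overlap of 200 bp, and lists without their lowest-scoring 25% of peaks. Named genes were the 9 cyclins, Mki67, per list the 3 largest changes called in both Ki67 comparisons (in either if fewer than 2), and the 3 genes most like each cyclin. Cdk2, E2f2, E2f3 and Tfdp1, the rest of small counts, were named after their values were seen. Members and lists were chosen with earlier results of these data known.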

Additional observations from a re-analysis of the deposited data

How the results depend on the processing

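For the 9 cyclins in 9 comparisons, 81 log2 fold changes were recomputed under 1053 alternatives in all. Of the 693 that kept all libraries, 646 kept direction and call, 36 gained and 9 lost a call, and 2 turned sign (Ccnf for repopulation against PND8 with the header code as a term, -0.39 in Ki67-positive and -0.20 in Ki67-negative cells); of the 360 that left out a library, 307 kept both, 5 gained, 16 lost and 32 turned sign.

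The count of cyclins called in repopulation with Ki67, 4, was 7 with no filter and 7 with the header code. For repopulation against PND8 in Ki67-positive cells, 3, it was 6 with no filter, 5 with the replicate block, 6 with the header code and 5 with only the groups compared. In Ki67-negative cells, 1, it was 2 with library sizes only, 2 with no filter, 2 with the replicate block, 5 with the header code and 2 with limma at either pseudocount. Shares of all genes called are not given here for any alternative fit, so these changes in count are no result about the cyclins. The cause was not tested. With a library left out the counts ran from 4 to 7 at PND8 with Ki67 (4 without Ki67-positive library 2), from 3 to 4 in repopulation, from 6 to 7 for repopulation Ki67-positive cells against adult (8 with all libraries), and from 1 to 3 for repopulation against PND8 in Ki67-negative cells (3 without PND8 Ki67-negative library 2, 2 without repopulation Ki67-negative library 1). The header code cannot be fitted for the adult comparisons.

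The labels do not say that a replicate number marks a shared animal, litter or day, so the number was not taken as pairing. Same-numbered libraries share a header code within each setting. Their deviations from the group mean (log2 CPM, gene by gene) were correlated across genes. For these deviations r was 0.338 between the PND8 groups and 0.263 between the repopulation groups, and -0.008 to 0.097 for other pairs of groups. The replicate block added Ccne1 (adjusted p = 0.0452) and Ccnf (0.00155) in repopulation, giving 6 calls.

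Sign turned on leaving out a library for values that had no call, which ranged for Ccnd2 from -1.41 to 0.38 (PND8 with Ki67) and -1.39 to 0.10 (repopulation Ki67-positive against adult), for Ccnd3 from -0.088 to 0.11 (PND8 Ki67-negative against adult), and for Ccnd1 from -0.34 to 0.25 (repopulation Ki67-negative against adult). Repopulation against PND8 in Ki67-positive cells ranged from -0.20 to 0.13 for Ccna2, -0.24 to 0.12 for Ccnb2 and -0.013 to 0.31 for Ccnf, and in Ki67-negative cells from -0.38 to 0.27 for Ccna2, -0.38 to 0.16 for Ccnb1, -0.33 to 0.19 for Ccne1 and -0.19 to 1.07 for Ccnf. The interaction ranged from -0.31 to 0.36 for Ccna2, -0.57 to 0.0054 for Ccnb1, -0.045 to 0.43 for Ccnb2, -0.51 to 0.10 for Ccnd1, -1.33 to 0.45 for Ccnd2 and -0.94 to 0.36 for Ccnf. Its sign did not turn for Ccnd3 (0.45 to 0.73), Ccne1 (0.44 to 0.98) and Ccne2 (0.26 to 0.84).

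Without the lowest-scoring 25% of peaks, the cyclins with H3K27ac fell from 8 to 4 in PND8 Ki67-negative and 8 to 5 in repopulation lists. They fell from 5 to 2 in cuprizone Ki67-negative and 6 to 3 in cuprizone Ki67-positive lists, and those with adult H3K4me3 from 9 to 5. The share of all genes was not computed for that cut, so the fall is no result about the cyclins. Adult Rpb2 gave 2 and 4 with a single list. ATAC and PND8 Rpb2 peaks are narrower than 200 bp, so that overlap was not run for them. With 2 libraries a group, low counts limit Ccnd2 and adult Ccnb1 and Ccne1.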
